A study of Homo sapiens with 4 samples.

Results

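Lysozyme and the cystatins were described here through 5 genes, LYZ, CST3, CST7, CSTA and CSTB, taken by symbol from the 27800 gene symbols of the study's expression table. They were measured by RNA sequencing in MOLM-13, an established human acute myeloid leukaemia line of monocytic character that carries a KMT2A-MLLT3 fusion. All cells received lentivirus with CRISPR-Cas9. The sgKAT6A group carried a guide against KAT6A, a histone lysine acetyltransferase, and the control group the vector labelled EV, with 2 libraries each. The study asked how deletion of KAT6A changes the expression program of leukaemia cells, for its proposed part in a differentiation block. Expression is in TPM, the number of transcripts of a gene per 1000000 transcripts of the library, corrected for transcript length, so levels of different genes can be compared within a library. Pairs of values are given as replicate 1, then replicate 2. The genes were selected on their TPM values in these same sgKAT6A and EV libraries, so their differences are given as a description, without a test. The sources used here do not give the content of EV, the guide, the number of clones or the harvest time, nor whether the libraries of a group came from separate cultures.

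Lysozyme is the enzyme that cleaves the peptidoglycan of bacterial cell walls, and monocytes, macrophages and granulocytes make and secrete it in quantity. Cystatins are small proteins that block papain-like cysteine proteases, chiefly the lysosomal cathepsins, by filling the active-site cleft. Cystatin C (CST3) and cystatin F (CST7) carry a signal peptide and enter the secretory pathway, whereas stefin A (CSTA) and stefin B (CSTB) lack one and act mainly in the cytosol. Cystatin C is secreted by most cells and is abundant in monocytes and dendritic cells. Cystatin F is restricted to blood cells and is sent to lysosomes and granules, where it acts on cathepsin C, the protease that activates granule serine proteases.

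KAT6A itself was at 16.2 and 16.7 TPM with EV, and 12.2 and 10.8 TPM with sgKAT6A. Both sgKAT6A libraries lay below both EV libraries, which is a measure of transcript and not of protein. Protein-coding genes held 81.2% and 81.6% of the TPM in EV and 77.9% and 78.1% in sgKAT6A, so TPM values of coding genes carry a small scale difference between the groups. Read depth is unknown because TPM keeps none, and the number of genes at 1 TPM or more ran from 12082 to 12630 per library. The monocytic character of the line was checked on 12 markers, all of which reached the mean of 1 TPM used as the filter on low values, and their summed TPM was 1140 and 1789 in EV and 1518 and 2471 in sgKAT6A. CD14 and FCN1, which define mature monocytes, were at 1.08 and 0.243 TPM in EV replicate 1 and at 3.04 and 0.473 TPM in sgKAT6A replicate 1. In EV replicate 2 they were at 29.3 and 16.5 TPM, and in sgKAT6A replicate 2 at 54.3 and 32.1 TPM. Both of these markers thus separated the replicate numbers more than the groups. Defining markers of other cell types (CD2, CD3E, CD8A, MS4A1 and PAX5) had no value above 0.185 TPM. The filter was reached by 3 of 9 T and NK cell markers, 0 of 6 B cell markers, 5 of 7 red cell markers and 2 of 8 fibroblast and epithelial markers. Their summed TPM in EV was 102 and 169 for T and NK cells, 1.10 and 2.03 for B cells, 155 and 422 for red cells and 9.31 and 11.2 for fibroblasts and epithelium. In sgKAT6A the sums were 131 and 232, 2.20 and 2.13, 401 and 260, and 9.65 and 10.3 in the same order. NKG7 held most of the T and NK sum, and HBB, HBA1 and HBA2 most of the red cell sum.

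LYZ and CST3 had higher values with sgKAT6A in every library, with no overlap of the groups, while CST7, CSTA and CSTB varied mainly with the replicate number. Averaged over the groups, LYZ was 1.35 times and CST3 1.60 times its EV level. CST7 was 0.839 times, CSTA 1.07 times and CSTB 1.19 times its EV level, each with overlapping groups. All 5 genes passed the filter on low values. Of them, 2 lay wholly above EV and 0 wholly below, against 14.4% and 23.2% of the 12603 genes tested. These counts describe the choice of genes, which was made on this contrast. In bulk RNA a larger share of cells that express a gene and more of its RNA per cell cannot be told apart.

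**Figure D1:**
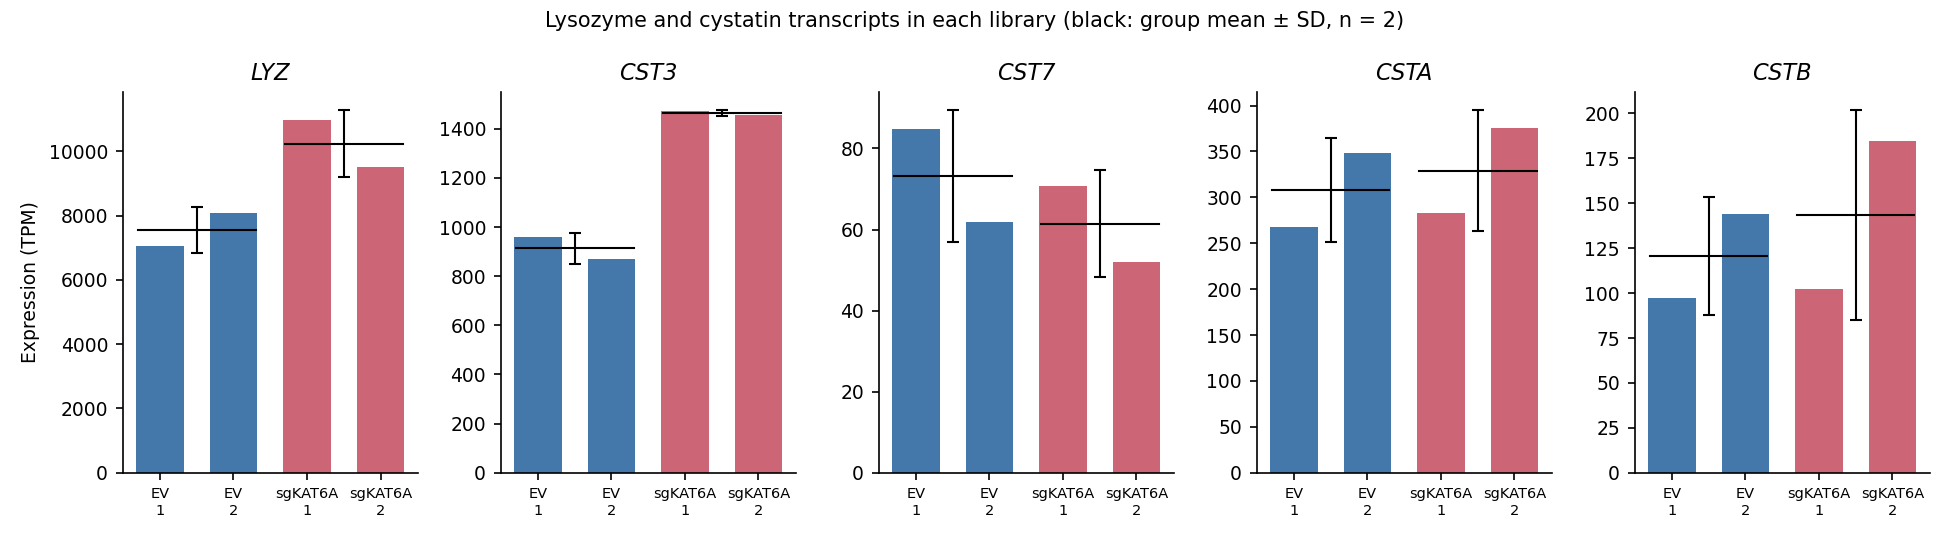
Expression in TPM of LYZ, CST3, CST7, CSTA and CSTB in each of the 4 libraries, one panel per gene with its own axis from 0. Bars are single libraries (blue EV, red sgKAT6A), and black lines with error bars are group means ± SD (n = 2). LYZ and CST3 are higher in both red bars than in both blue bars, whereas CST7 is lower and CSTA and CSTB are higher in replicate 2 of each group.

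LYZ, on chromosome 12 (69348341 to 69354234, plus strand, GENCODE 29 on GRCh38), had 7060 and 8068 TPM with EV, and 10975 and 9500 TPM with sgKAT6A. It was among the most abundant symbols of every library, ranking 18 and 13 in EV and 7 and 13 in sgKAT6A, and it took from 0.706% to 1.10% of all transcripts. The mean was 7564 ± 713 TPM in EV and 10238 ± 1043 TPM in sgKAT6A (SD, n = 2 each), and the groups did not overlap. The log2 difference was 0.44 on the log2(TPM + 1) scale used for all differences here. It was uneven between the replicate numbers, at 0.64 between the number 1 libraries and 0.24 between the number 2 libraries. The gap between the libraries of a group was 0.19 in EV, where replicate 2 was higher, and -0.21 in sgKAT6A, where it was lower. Almost all lysozyme family transcripts of the table were those of LYZ. Of the 9 other lysozyme family genes, 4 were listed at 0 in every library and none reached the filter, the highest single value being 0.719 TPM for LYG1 in sgKAT6A replicate 1.

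CST3, encoding cystatin C, was at 958 and 869 TPM with EV, and 1472 and 1455 TPM with sgKAT6A. The libraries of each group lay close together and the groups stood apart. Means were 914 ± 62.6 TPM in EV and 1464 ± 12.03 TPM in sgKAT6A (SD, n = 2 each), and the log2 difference was 0.68. The difference was 0.62 between the number 1 libraries and 0.74 between the number 2 libraries, so it was present at a like size in both. The gap between libraries of one group was -0.14 in EV and -0.02 in sgKAT6A, and 60.8% and 95.6% of the tested genes had a larger gap in the same pair. CST3 ranked 128 and 140 among all symbols in EV and 101 and 104 in sgKAT6A.

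The DNA before the CST3 start is shown because this gene had the largest group difference of the 5, and it was the only one of them found in the RefSeq promoter table (GRCh38.p14). The stretch covers chr20:23638027-23638205, read on the minus strand. It runs from 250 to 72 bases before the RefSeq start at 23637955 and stops short of the first exon of a longer GENCODE 29 transcript. Another GENCODE 29 transcript starts farther upstream and has this stretch in its first intron.

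CST3 upstream: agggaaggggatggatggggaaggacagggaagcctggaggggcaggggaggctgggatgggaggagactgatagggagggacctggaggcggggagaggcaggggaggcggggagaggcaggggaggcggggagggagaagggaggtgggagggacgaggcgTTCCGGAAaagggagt

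The capitals mark CCGGAA, a core bound by ETS family factors, which occurs on both strands at overlapping positions, from 85 to 80 bases before the start on the strand shown and from 87 to 82 on the other. This motif was present in 8.48% of the 35116 promoters of the table over the same stretch. The PU.1-type core GAGGAA, the GC box GGGCGG, the box CCAAT and the TATA box TATAAA were searched on both strands and not found in these 179 bases. They occurred in 17.2%, 31.1%, 23.7% and 7.12% of the promoters over the same stretch. Bases nearer the start were not searched, so a motif there, such as a TATA box, would be missed. The stretch was rich in G and C, at 68.7% against a median of 57% over all promoters. A match of letters is not a measured binding site, and binding was not analysed here.

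CST3 lies in the cystatin cluster of chromosome 20 (23626706 to 23638473, minus strand, GENCODE 29), among genes for salivary and reproductive tract cystatins. The neighbours CST1, CST2, CST4, CST5, CST8, CST9, CST9L and CST11 were listed at 0 in all 4 libraries. CSTL1, at the edge of the cluster, was at 0.221 TPM in sgKAT6A replicate 1 and at 0 in the others. The group difference at this cluster was thus measured on CST3 alone. Over the whole family, 10 of 14 other cystatin genes were listed at 0 throughout and none reached the filter. CST6, the secreted cystatin E/M, reached 0.832 TPM at most. The type 3 genes KNG1 and HRG, which encode plasma proteins made by the liver, stayed at or below 0.0765 TPM.

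CST7, encoding cystatin F, lies on the same chromosome outside the cluster (24949230 to 24959928, plus strand). It was at 84.7 and 61.8 TPM with EV, and 70.8 and 52.1 TPM with sgKAT6A. Replicate 2 was the lower library of each group, and the groups overlapped. Means were 73.2 ± 16.2 TPM in EV and 61.4 ± 13.2 TPM in sgKAT6A (SD, n = 2 each), with a log2 difference of -0.25. The difference was -0.26 and -0.24 within replicate numbers 1 and 2, while the step from replicate 1 to replicate 2 was -0.45 in EV and -0.43 in sgKAT6A. CST7 was the only one of the 5 genes with a lower mean in sgKAT6A. Leaving out EV replicate 1 gave a log2 difference of -0.02, and leaving out sgKAT6A replicate 2 gave -0.03. Leaving out EV replicate 2, or sgKAT6A replicate 1, gave -0.47.

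CSTA, encoding stefin A, is on chromosome 3 (122325244 to 122341972, plus strand). It was at 268 and 348 TPM with EV, and 282 and 376 TPM with sgKAT6A. Replicate 2 was the higher library of each group, by 0.38 in EV and 0.41 in sgKAT6A on the log2 scale, and the group difference of 0.09 was smaller than either gap. Means were 308 ± 56.6 TPM in EV and 329 ± 66.0 TPM in sgKAT6A (SD, n = 2 each).

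CSTB, encoding stefin B, is on chromosome 21 (43772511 to 43776445, minus strand). It was at 97.5 and 144 TPM with EV, and 102 and 185 TPM with sgKAT6A. As for CSTA, replicate 2 was higher in each group, by 0.56 in EV and 0.85 in sgKAT6A, the widest gaps of the 5 genes. Means were 121 ± 32.8 TPM in EV and 143 ± 58.4 TPM in sgKAT6A (SD, n = 2 each). The group difference of 0.21 came mostly from the number 2 libraries, with 0.07 within number 1 and 0.36 within number 2. Both stefins changed the sign of their group difference with the libraries used. Without EV replicate 1 the difference was -0.10 for CSTA and -0.07 for CSTB, and without sgKAT6A replicate 2 it was -0.11 and -0.21. Without EV replicate 2 it was 0.28 and 0.49, and without sgKAT6A replicate 1 it was 0.30 and 0.64.

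**Figure D2:**
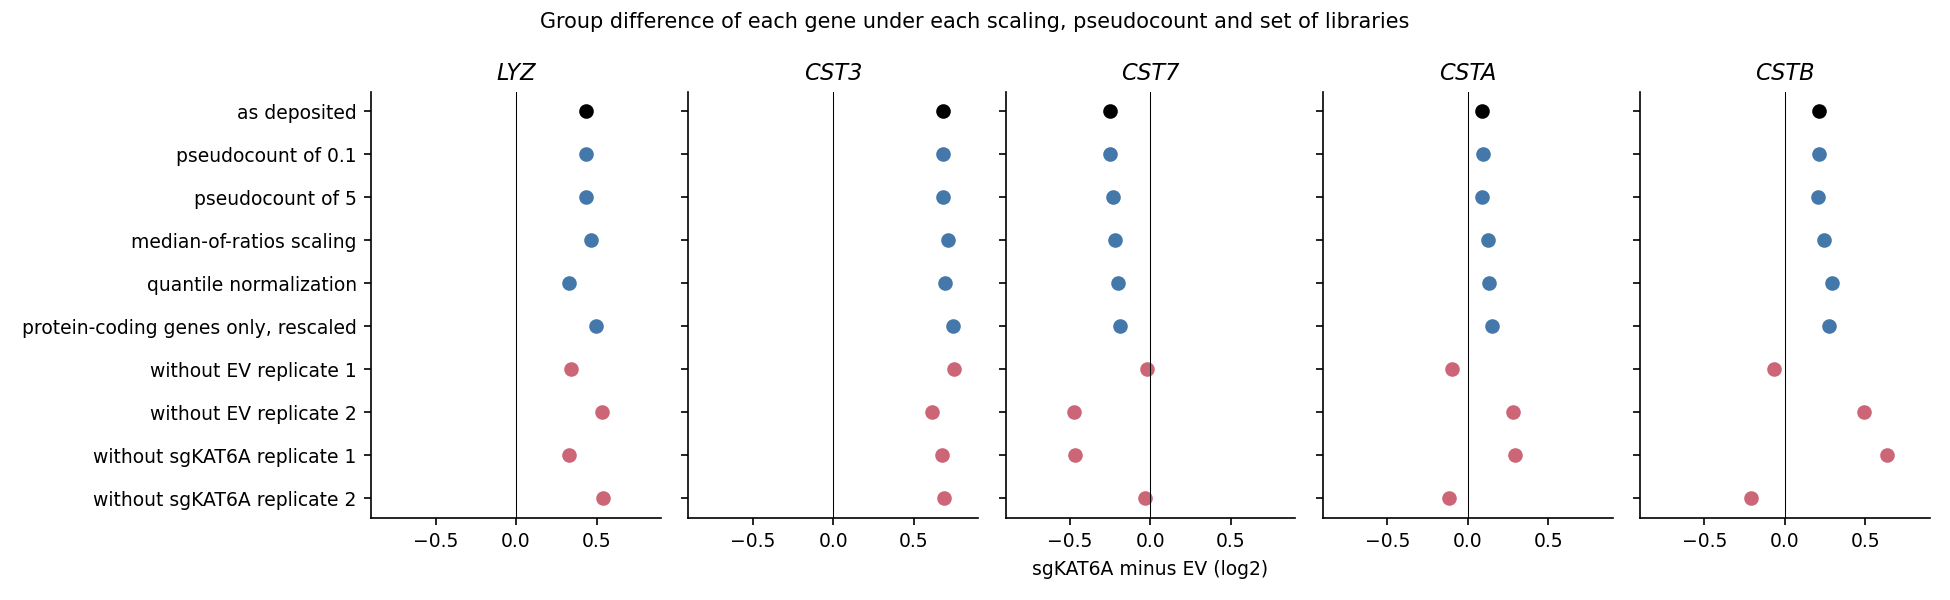
Group difference (sgKAT6A minus EV, log2 scale) of each of the 5 genes, one panel per gene, as deposited (black), under other pseudocounts and scalings (blue) and with 1 library left out (red). LYZ stays between 0.33 and 0.54 and CST3 between 0.61 and 0.75, while CSTA and CSTB cross 0 when EV replicate 1 or sgKAT6A replicate 2 is left out.

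The 5 genes therefore showed more than one pattern over the 4 libraries. The variation of each gene was divided into a part that follows the group, a part that follows the replicate number and the remainder. The group part held 97.9% of the sum of squares for CST3 and 82.5% for LYZ. For LYZ the remaining 17.4% was the unequal difference between the replicate numbers. The number part held 94.7% for CSTA, 88.1% for CSTB and 75.9% for CST7. Over all tested genes the median was 33.2% for the group part and 39.95% for the number part. The sources used here do not say what the libraries of one number share.

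**Figure D3:**
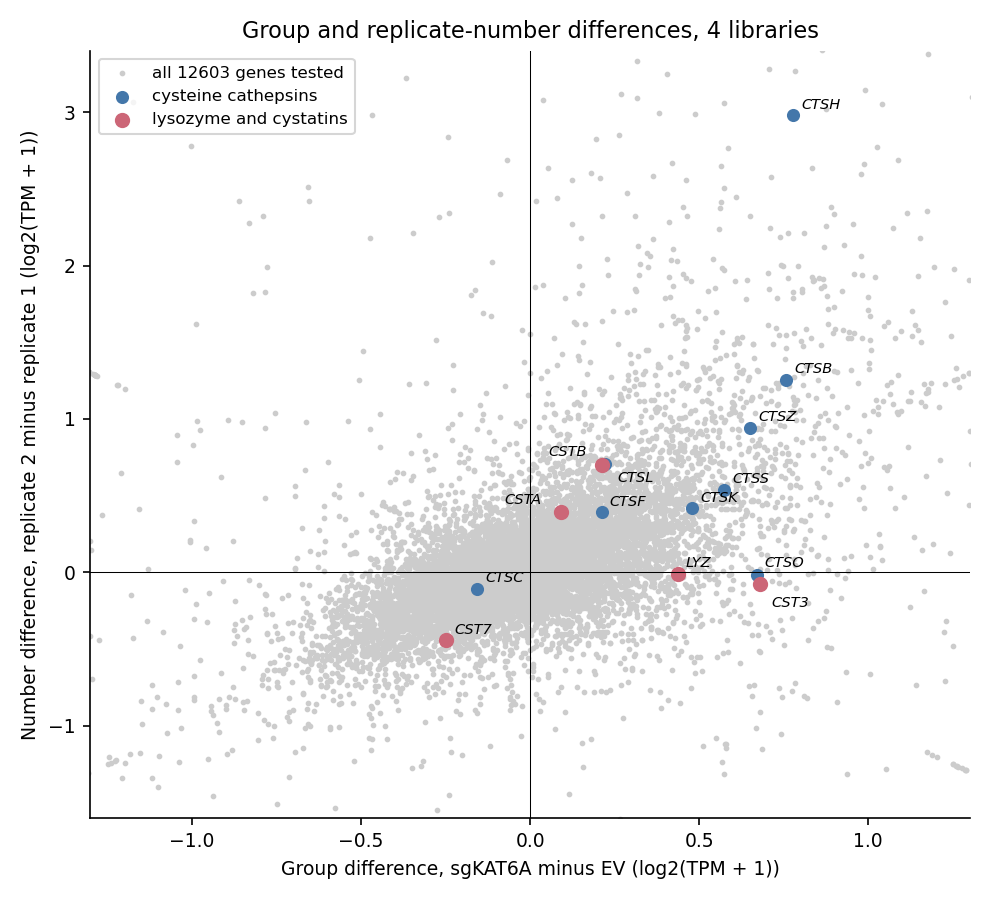
Each point is a gene, with the group difference (sgKAT6A minus EV) on the horizontal axis and the number difference (replicate 2 minus replicate 1, averaged over the groups) on the vertical axis, both in log2(TPM + 1). Grey points are the 12603 genes tested, of which 371 lie outside the plotted range. CST3 and LYZ sit to the right near 0 on the vertical axis, at 0.68 and 0.44, and CSTA and CSTB sit above 0 with CTSL and CTSF, while CST7 sits below.

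In profile, LYZ was closest to CST3 and CSTA to CSTB. With each gene's log2 values centred on their own mean, the Euclidean distance over the 4 libraries was 0.37 between LYZ and CST3 and 0.36 between CSTA and CSTB. The other pairs lay between 0.57 and 1.24 apart, CST7 and CSTB being the farthest. The same distance was computed to 6683 protein-coding genes whose mean reached 10 TPM. The profiles nearest to LYZ were those of BST2 (0.11), LINGO3 (0.11) and FAM43A (0.11). CST3 had no gene within 0.2, its nearest being UBE2W (0.24), NUDT14 (0.24) and MS4A4E (0.25). Nearest to CST7 were FBRSL1 (0.02), PSMG4 (0.03) and DNAJC2 (0.04), nearest to CSTA were AGTRAP (0.02), CAPZB (0.03) and UNC119 (0.03), and close to CSTB were MXD3 (0.07) and FAM110A (0.08). Within a distance of 0.2 there were 32 genes for LYZ, 81 for CSTB, 269 for CST7 and 511 for CSTA. With 4 libraries a close profile was thus common for CST7 and CSTA. The values were not scaled, so the distance depends on the size of the differences as well as on their pattern.

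Ratios within a library do not depend on how the library was scaled. The ratio of CST3 to CST7, the secreted cystatins, was 11.3 and 14.1 in EV replicates 1 and 2 and 20.8 and 27.9 in sgKAT6A. The ratio of CST3 to CSTA was 3.57 and 2.50 in EV and 5.21 and 3.87 in sgKAT6A, and that of LYZ to CST7 was 83.3 and 131 in EV and 155 and 182 in sgKAT6A. In these 3 of the 10 pairs, all with CST3 or LYZ as the numerator, the groups did not overlap. CST3 and LYZ were already apart between the groups, so this count is not a separate result. The ratio of LYZ to CST3 was 7.37 and 9.28 in EV and 7.45 and 6.53 in sgKAT6A, with overlap. CST3 made up most of the cystatin transcripts, at 68.0% and 61.1% of the 4 genes' sum in EV and 76.4% and 70.4% in sgKAT6A.

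The proteases that cystatins inhibit mostly had higher mean values in sgKAT6A. Of the 9 measured above the filter, 5 varied more with the replicate number than with the group, a share near the 53.4% of all genes tested. The list of papain-like cathepsins and legumain held 12 genes, of which 9 passed the filter. By limma, 0 of these 9 had an adjusted p under 0.05 in either direction, as did 0 of all 12603 genes tested, which is 0%, while 459 genes had an unadjusted p under 0.05. The median log2 difference of the 9 was 0.57, against -0.02 over all genes tested. Leaving out EV replicate 1 gave 0.16, and leaving out sgKAT6A replicate 2 gave 0.08. The median was 0.31 with a pseudocount of 5 and 0.38 with no filter. With both sgKAT6A libraries above both EV libraries were 3 of them, CTSO, CTSS and CTSK, and none lay wholly below, against 14.4% above and 23.2% below of all genes tested.

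CTSO, a little-studied cathepsin, was the one closest to CST3 in its components, at 1.61 and 1.76 TPM with EV, and 3.43 and 3.11 TPM with sgKAT6A, a log2 difference of 0.67 (limma, adjusted p = 0.784). CTSS, the cathepsin that trims the invariant chain of MHC class II, was at 23.2 and 32.6 TPM with EV, and 33.4 and 51.3 TPM with sgKAT6A (adjusted p = 0.784 by limma). CTSK, best known from osteoclasts, was at 1.61 and 2.67 TPM with EV, and 2.83 and 3.86 TPM with sgKAT6A (adjusted p = 0.784 by limma). In these 3 genes the groups were apart, at levels well below that of CST3.

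CTSB, CTSZ and CTSH varied mainly with the replicate number, and CTSC did not. CTSB, a general lysosomal protease, was at 109 and 244 TPM with EV, and 172 and 441 TPM with sgKAT6A (adjusted p = 0.792 by limma). CTSZ, a carboxypeptidase, was at 157 and 311 TPM with EV, and 254 and 477 TPM with sgKAT6A (adjusted p = 0.784 by limma). CTSH, an aminopeptidase, was at 13.8 and 112 TPM with EV, and 23.5 and 199 TPM with sgKAT6A (adjusted p = 0.89 by limma). In each of the 3, EV replicate 2 lay above sgKAT6A replicate 1. CTSL was at 13.3 and 23.1 TPM with EV, and 16.2 and 26.2 TPM with sgKAT6A, and CTSF at 2.93 and 4.35 TPM with EV, and 3.72 and 4.96 TPM with sgKAT6A (adjusted p = 0.875 and 0.823 by limma). CTSC, the protease on which cystatin F acts, was at 122 and 127 TPM with EV, and 122 and 102 TPM with sgKAT6A, with a log2 difference of -0.16 (adjusted p = 0.792 by limma). It was the only one of the 9 with a lower mean in sgKAT6A, as CST7 was among the cystatins. CTSV, CTSW and LGMN did not reach the filter.

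Set against their target proteases, the cystatins gave a ratio that separated the replicate numbers and overlapped between the groups. The 4 cystatins summed to 1408 and 1423 TPM in EV replicates 1 and 2 and to 1928 and 2068 TPM in sgKAT6A, with the groups apart. The 12 proteases summed to 445 and 860 TPM in EV and to 633 and 1310 TPM in sgKAT6A. The ratio of the sums was 3.16 and 1.66 in EV and 3.04 and 1.58 in sgKAT6A. The group difference of this ratio was -0.06 on the log2 scale, within the SD of 0.66 in EV and 0.67 in sgKAT6A (n = 2 each). The ratio is one of transcripts, and not of active protein.

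**Figure D4:**
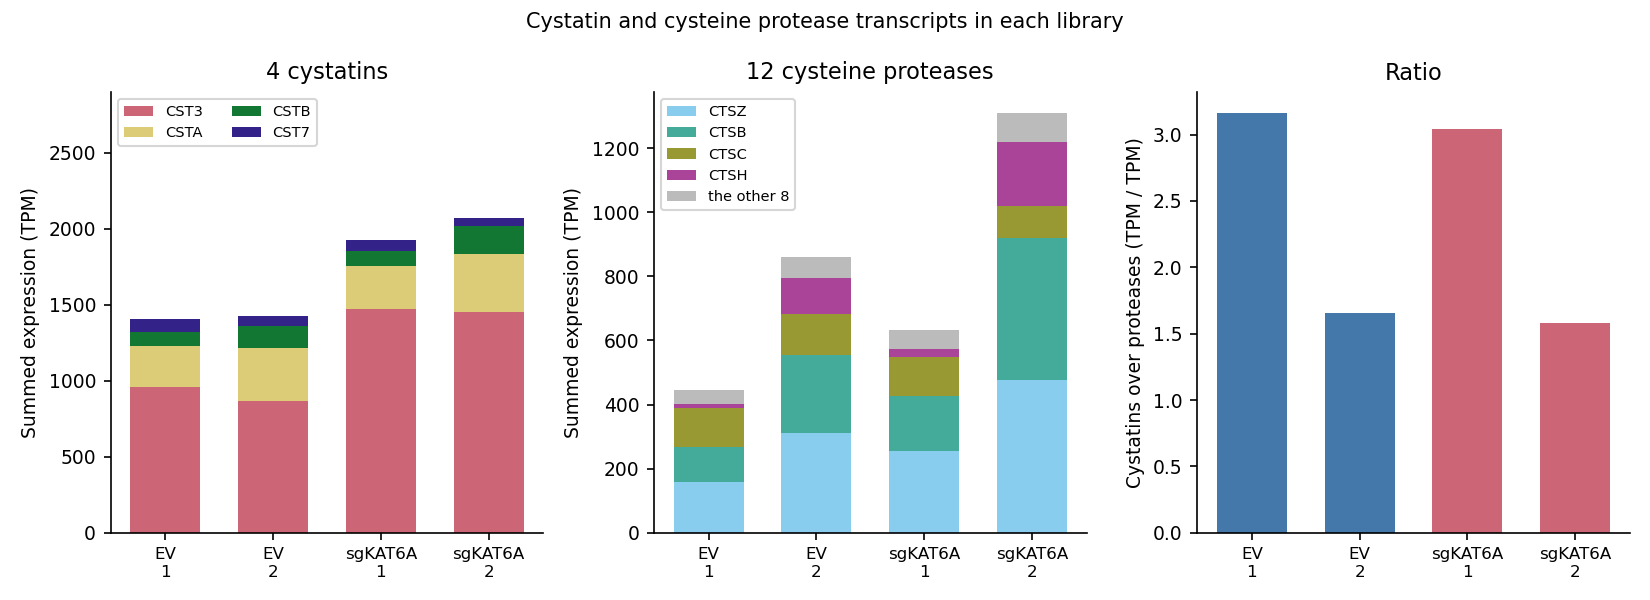
Summed expression in TPM of the 4 cystatins (left) and of the 12 cysteine proteases (middle), stacked by gene, and the ratio of the sums (right), each for the 4 libraries. The cystatin sum is higher in both sgKAT6A libraries, the protease sum is higher in replicate 2 of each group, and the ratio is near 3 in the number 1 libraries (3.16 and 3.04) and lower in the number 2 libraries (1.66 and 1.58).

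Other protease inhibitors of leukocytes were given by counts for comparison with the cystatins. Of 12 genes, 10 passed the filter, and 0 of 10 were called by limma in either direction, as were 0% of all genes tested. With no overlap of the groups, 5 were higher and 0 lower in sgKAT6A, against 14.4% and 23.2% of all genes tested. The median log2 difference was 0.64. Leaving out EV replicate 1, or sgKAT6A replicate 2, gave a median of 0.33. The smallest unadjusted p was that of SERPINB2, plasminogen activator inhibitor 2, at 8.76 and 13.5 TPM with EV, and 19.2 and 20.7 TPM with sgKAT6A (adjusted p = 0.784 by limma). Like CST3, SERPINB2 was apart between the groups, at a far lower level.

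LYZ was the most abundant transcript in each library among the antibacterial proteins examined. Of 19 other genes of this kind, 14 passed the filter. Of these, 0 of 14 were called by limma in either direction, as were 0% of all genes tested. CAMP, BPI and RNASE2 were higher in sgKAT6A with no overlap and 0 were lower, a count of 3 of 14 that is near the 14.4% of all genes tested that were higher (23.2% were lower). The median log2 difference was 0.17, and it was 0.0996 with no filter. Leaving out EV replicate 2 gave 0.04, and leaving out sgKAT6A replicate 2 gave 0.30. RNASE2, the eosinophil-derived neurotoxin, was the most abundant of the 3, at 577 and 505 TPM with EV, and 610 and 610 TPM with sgKAT6A (adjusted p = 0.784 by limma). The serine proteases that cathepsin C activates were lower in replicate 2 of each group, as CST7 was. They were singled out after their values were seen, from a list that went both ways. Of its 14 tested genes, 6 were lower and 5 higher in replicate 2 of both groups, against 31.5% and 38.0% of all genes tested. PRTN3, proteinase 3, was at 6062 and 3429 TPM with EV, and 4570 and 2376 TPM with sgKAT6A. ELANE, neutrophil elastase, was at 1494 and 607 TPM with EV, and 1162 and 564 TPM with sgKAT6A. CTSG, cathepsin G, was at 653 and 157 TPM with EV, and 408 and 78.6 TPM with sgKAT6A. In log2 terms the number difference was smaller for CST7 (-0.44) than for PRTN3 (-0.88), ELANE (-1.17) and CTSG (-2.21).

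Among 7 transcription factors of myeloid cells, 0 of 7 were called by limma in either direction, as were 0% of all genes tested. With no overlap of the groups, CEBPE was higher and IRF8 and MYB were lower in sgKAT6A, shares close to the 14.4% higher and 23.2% lower of all genes tested. The median log2 difference was 0.14, and it was 0.060 with a filter of 5 TPM. CEBPE, a factor of granulocyte maturation, was at 2.99 and 2.59 TPM with EV, and 5.28 and 5.32 TPM with sgKAT6A, with a group part of 97.9% (adjusted p = 0.784 by limma). SPI1, which encodes PU.1, was at 334 and 461 TPM with EV, and 379 and 519 TPM with sgKAT6A, higher in replicate 2 of each group as CSTA and CSTB were. Among the 7 factors, 3 were higher and 2 lower in replicate 2 of both groups, against 38.0% and 31.5% of all genes tested. Leaving out EV replicate 1 gave a median of -0.01, sgKAT6A replicate 2 gave 0.01, EV replicate 2 gave 0.29 and sgKAT6A replicate 1 gave 0.27.

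Most of the markers of the monocytic lineage moved with the replicate number in the same direction as CSTA and CSTB. Of the 12 markers, 10 were higher in replicate 2 of both groups, as were 38.0% of all genes tested, and 11 were higher in sgKAT6A within both numbers, as were 32.0%. Between replicates 1 and 2 the median log2 gap of the markers was 0.78 in EV and 0.78 in sgKAT6A. The same gap was 0.19 and -0.21 for LYZ and -0.14 and -0.02 for CST3. The part of these marker differences in the values of the 5 genes was not tested. With 2 libraries on each side, the smallest two-sided p of an exact permutation test is 0.333.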

How the data were processed

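The authors deposited gene-level TPM in a single table, and the submitters' processing notes name Salmon and hg38. The sources used here do not give the version, the transcript annotation or how transcripts were summed to genes. Each of the 4 columns was matched to its sample by title, and all columns were used. TPM sums to 1000000 per library and keeps no read depth, so no count model, counting interval or detection limit was computed.

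The scale was log2(TPM + 1). Symbols averaging 1 TPM or more, 12603 of 27800, were compared between sgKAT6A and EV with limma 3.58.1 in R 4.3.3, with trended empirical Bayes variances (residual degrees of freedom 2, prior 1.98), two-sided, with Benjamini-Hochberg adjustment across those genes and a threshold of 0.05. The fit was tested on simulated data with independent noise in each library and no part shared by replicate number, unlike these data. The outcome is not reported here. The 5 genes and the gene lists were chosen with earlier results of these data known. Named besides the 5 genes and KAT6A were list genes of the cystatin, lysozyme and cysteine protease families that passed the filter, genes among the 4 with the smallest unadjusted p of each of the other 3 lists, and the 3 nearest profiles of each gene. One of these profiles and one marker are not reported here. Genes named outside this rule, such as SPI1, were chosen after their values were seen or are markers. Markers of T, NK, B, red cell, fibroblast and epithelial lineages were looked up. Protein-coding class came from RefSeq. GENCODE 29 lists a gene overlapping LYZ on the other strand and one inside CST3, which are not analysed here, and the counting is not stated to use strand. Sequences of LYZ, CST7, CSTA and CSTB are not used here. Alternatives changed the pseudocount, filter, scaling, variance model, libraries and block. Since separate cultures are not stated, p-values reflect the spread of these 4 libraries alone, which may be technical. Figures were drawn with matplotlib 3.10.9.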

Additional observations from a re-analysis of the deposited data

How the results depend on the processing

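The directions of LYZ, CST3 and CST7 held under all scalings, pseudocounts and left-out libraries run. With 1 library left out, the log2 difference ran from 0.33 to 0.54 for LYZ, from 0.61 to 0.75 for CST3, from -0.47 to -0.02 for CST7, from -0.11 to 0.30 for CSTA and from -0.21 to 0.64 for CSTB, the last pair changing sign without EV replicate 1 and without sgKAT6A replicate 2. List medians ran from 0.080 to 0.72 for cysteine proteases, from 0.33 to 0.74 for other inhibitors, from 0.038 to 0.30 for antibacterial genes and from -0.014 to 0.29 for transcription factors. With a pseudocount of 5 the median was 0.31 for cysteine proteases and 0.45 for other inhibitors, and with no filter it was 0.38 for cysteine proteases and 0.0996 for antibacterial genes. That of the transcription factors was 0.060 with a mean of at least 5 TPM, 0.17 with median-of-ratios scaling, 0.21 with quantile normalization and 0.20 over protein-coding genes rescaled. The cause was not tested. The labels do not pair the libraries. Deviations of same-numbered libraries from their group means correlated at 0.45 across genes. With the replicate number as a block, limma called 15 genes, 13 higher and 2 lower in sgKAT6A, against 0 without the block, and none of the 5 genes or of the list genes was among them. Every other alternative called 0 genes by limma, with 179 to 1212 at an unadjusted p under 0.05. Depth is unknown, so the precision of low values such as CTSO and CAMP cannot be given.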
